A study of Mus musculus with 2 samples.

Results

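The genes of the MHC class I presentation pathway were followed across the cell classes of the liver in WT mice and in mice with hepatocyte deletion of NgBR (N-LKO). The set comprised 9 genes chosen by symbol, with all 9 found among the 32285 genes of the matrices: the heavy chains H2-K1 and H2-D1, the light chain B2m, the peptide-loading genes Tap1, Tap2 and Tapbp, the inducible proteasome subunits Psmb8 and Psmb9, and the transactivator Nlrc5. Droplet single-cell RNA sequencing of the 3′ end of transcripts had been done on a single library of each group (1 per group). Liver of control male C57BL6 mice gave the WT library. The N-LKO library came from liver together with tumor tissue of mice in which Cre under the albumin promoter had deleted a loxP-flanked part of Nus1, the gene for NgBR, in hepatocytes. NgBR forms part of the cis-prenyltransferase complex, which serves dolichol synthesis. Mice of both groups had been kept on chow for 8 weeks and had then received a Western diet for 16 weeks, which the sample titles call a high-fat diet. Hepatocytes and nonparenchymal cells were mixed before loading, and a smaller portion of tumor cells was added in N-LKO. The number of mice behind each library is not given in the sources used here. Genotype, tumor tissue and library cannot be told apart, and with 1 library per group no test across samples was possible. Intervals (95%) cover counting error only.

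MHC class I molecules carry peptides from inside the cell to its surface, where CD8+ T cells and NK cells read them. Peptides are cut by the proteasome, whose constitutive catalytic subunits are exchanged for inducible ones under interferon. They are pumped into the endoplasmic reticulum by the Tap1-Tap2 transporter and loaded on the heavy chain and B2m with the help of tapasin, the product of Tapbp. Nlrc5 is drawn to class I promoters by the factors bound at the X and Y boxes, and interferon raises most genes of the pathway, in part through Irf1. Hepatocytes are known for low class I expression relative to the immune and endothelial cells around them.

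Of the 9 genes, 7 lie on chromosome 17, and Psmb9, Tap1, Psmb8 and Tap2 lie next to each other within 34.3 kb in the GRCm38 annotation. RefSeq promoter sequence was at hand for 7 of the 9 genes. Sequences before a listed transcription start (GRCm38.p6) are shown for the heavy chains, B2m and Psmb8, with the stretch that Psmb9 and Tap1 share. They are shown because they hold the letters known to be read by the X and Y box factors and by interferon signalling. Capitals mark matches on either strand to GAAANNGAA or GAANNGAAA (interferon-stimulated response element), TTCNNNGAA (gamma-activated site), TGACG (core of the X2 box) and CCAAT (Y box, read ATTGG on the other strand). The matches do not overlap one another. GAANNGAAA was added after the sequences had been seen. B2m is chr2:122147437-122147686 on the plus strand, H2-K1, for which the sequence before 1 of its listed starts is shown, is chr17:34000334-34000583 on the minus strand, H2-D1 is chr17:35262844-35263093 on the plus strand and Psmb8 is chr17:34197945-34198194 on the plus strand. The sequence between the listed starts of Psmb9, which is read leftward, and Tap1, which is read rightward, is chr17:34187331-34187555 and is written on the plus strand. In the GRCm38 annotation used for genomic span, Psmb9 reaches to 34187764, so this stretch lies inside the annotated gene. Psmb8 and H2-D1 begin at 34197721 and 35262730 in that annotation, so their stretches also lie inside the annotated genes.
B2m: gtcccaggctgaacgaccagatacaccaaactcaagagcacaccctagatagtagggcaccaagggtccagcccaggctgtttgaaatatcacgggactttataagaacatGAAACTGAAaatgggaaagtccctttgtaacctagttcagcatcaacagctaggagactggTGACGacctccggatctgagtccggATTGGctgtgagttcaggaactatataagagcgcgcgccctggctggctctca
H2-K1: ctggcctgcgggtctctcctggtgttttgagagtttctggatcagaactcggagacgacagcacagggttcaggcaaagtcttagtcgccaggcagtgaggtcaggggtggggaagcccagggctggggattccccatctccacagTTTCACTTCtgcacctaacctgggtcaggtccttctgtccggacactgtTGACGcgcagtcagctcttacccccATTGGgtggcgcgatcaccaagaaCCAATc
H2-D1: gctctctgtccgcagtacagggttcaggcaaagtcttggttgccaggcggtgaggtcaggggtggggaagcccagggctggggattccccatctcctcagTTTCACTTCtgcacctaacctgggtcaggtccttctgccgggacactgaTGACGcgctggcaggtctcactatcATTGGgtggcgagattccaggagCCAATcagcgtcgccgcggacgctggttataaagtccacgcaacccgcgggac
Psmb8: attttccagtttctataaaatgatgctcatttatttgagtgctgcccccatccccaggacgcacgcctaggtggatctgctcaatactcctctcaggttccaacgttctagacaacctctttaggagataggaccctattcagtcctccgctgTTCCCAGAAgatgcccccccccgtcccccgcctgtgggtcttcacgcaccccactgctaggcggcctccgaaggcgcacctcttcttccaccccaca
Psmb9-Tap1: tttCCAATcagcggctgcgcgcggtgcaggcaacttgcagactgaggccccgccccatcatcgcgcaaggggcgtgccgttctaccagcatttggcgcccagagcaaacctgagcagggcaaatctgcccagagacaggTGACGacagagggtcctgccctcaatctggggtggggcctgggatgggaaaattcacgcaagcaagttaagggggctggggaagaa

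The H2-K1 and H2-D1 sequences were identical at 177 of 203 aligned bases (87.2%). In B2m, H2-K1 and H2-D1 the X2 core was followed by ATTGG with 20 bases between them, an arrangement that, on either strand, 0.0913% of all 32851 promoters of this length held. This spacing was looked for after the sequences had been seen. CCAAT was matched in 6 of the 7 genes with a promoter and in 33.8% of all promoters, and TGACG in 5 of 7 and in 17.8%. These counts are by gene and not by independent sequence. Psmb9 and Tap1 count the same CCAAT and the same TGACG in the stretch they share, and H2-K1 and H2-D1 are near copies. GAAANNGAA was matched in B2m alone among the 7, against 7.13% of all promoters, GAANNGAAA in H2-K1 and H2-D1, against 6.31%, and TTCNNNGAA in Psmb8 alone, against 7.02%. These matches describe letters and not binding.

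The libraries held 85522287 UMIs over 100171 barcodes (WT) and 87575064 UMIs over 90147 barcodes (N-LKO). After filtering, 18431 WT cells and 19855 N-LKO cells were left, with medians of 1400 and 1455 UMIs per cell, and 121 cell barcodes occurred in both libraries. The 9 genes and the rest of their pathway were kept out of the clustering, and 11 classes with at least 100 cells in each library were compared. Levels are given throughout in CPM, the UMIs of a gene summed over a class and scaled to a common total. Each was named from its markers, for example Alb for hepatocyte-like cells (21781 and 16244 CPM in WT and N-LKO), Epcam for cholangiocyte-like cells (414 and 401) and Cd3e for T/NK-like cells (320 and 156). Hepatocyte-like cells lay in different clusters in the 2 libraries. A single cluster held 8158 of the 9938 WT cells and 63 N-LKO cells, and another held 2007 of the 2096 N-LKO cells and 102 WT cells. Nus1 was counted at 73.1 CPM in WT hepatocyte-like cells and at 39.1 in N-LKO. Free RNA itself held 57.8 in WT and 37.4 in N-LKO. Its estimated share of these cells was 89.8% in WT and 39.7% in N-LKO. The unscaled N-LKO level therefore does not place Nus1 at background there, and WT lay nearer to its scaled background. By the study's construct the deleted exon lies at the 5′ end of Nus1, so these 3′ counts do not check the deletion. Free RNA was read from barcodes under 500 UMIs, and it held much hepatocyte RNA. No barcode in the matrices held fewer than 326 UMIs in WT or 377 in N-LKO. The free RNA profile thus came from 18526 WT and 13674 N-LKO barcodes between those minima and 500 UMIs. Whether these barcodes also held shallow or damaged cells was not tested, and every free RNA share and subtracted value rests on them. The 8 hepatocyte markers summed to 62077 CPM in WT hepatocyte-like cells and 66200 in WT free RNA. In N-LKO they summed to 60885 and 27091. By these markers the WT hepatocyte-like class is hardly told apart from free RNA, which limits its levels, ratios and subtracted values. In sums over a class, fewer expressing cells and less RNA per cell cannot be told apart.

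The heavy chains and B2m were counted in every class of both libraries, and their order differed from that of the other 6 genes. H2-K1 was highest in hepatic stellate-like cells of WT (1137) and in cholangiocyte-like cells of N-LKO (805), and lowest in dendritic-like cells of both (492 and 477). The range between the extremes was narrow for H2-K1, at 2.31-fold in WT and 1.69-fold in N-LKO. H2-D1 spread further in WT (4.86-fold), from 180 in hepatocyte-like to 875 in hepatic stellate-like cells, and reached from 240 in hepatocyte-like to 551 in Kupffer-like cells in N-LKO. Hepatocyte-like cells thus held the lowest H2-D1 of all 11 classes in both libraries, while their H2-K1 (623 and 626) ranked 8 of 11 in WT and 6 of 11 in N-LKO. B2m ran from 876 in cholangiocyte-like to 1851 in hepatic stellate-like cells in WT and from 813 to 1310 in N-LKO, with Kupffer-like cells highest there. For B2m, hepatocyte-like cells ranked 5 of 11 in WT (1360) and 2 of 11 in N-LKO (1266). These levels and ranks were taken with free RNA left in. In WT hepatocyte-like cells its subtraction left 2698 of 10447 UMIs of H2-K1, 1019 of 3017 of H2-D1 and 6433 of 22803 of B2m. In N-LKO it left 1746 of 2903, 713 of 1113 and 4237 of 5867. Between classes next to each other in these orders, the interval of the ratio left out 1 in 1 to 4 of the 10 pairs for each of these 3 genes and each library, so most neighbours did not differ beyond counting error. H2-K1 and H2-D1 are close relatives of each other and of the H2-Q and H2-T genes. Of 451 windows of 50 bases at the end of each transcript, 2 of H2-K1 occurred in H2-D1 and 43 of H2-D1 occurred in other genes, while those of the other 7 genes occurred nowhere else. How the authors' counting divided reads among these relatives is uncertain.

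**Figure D1:**
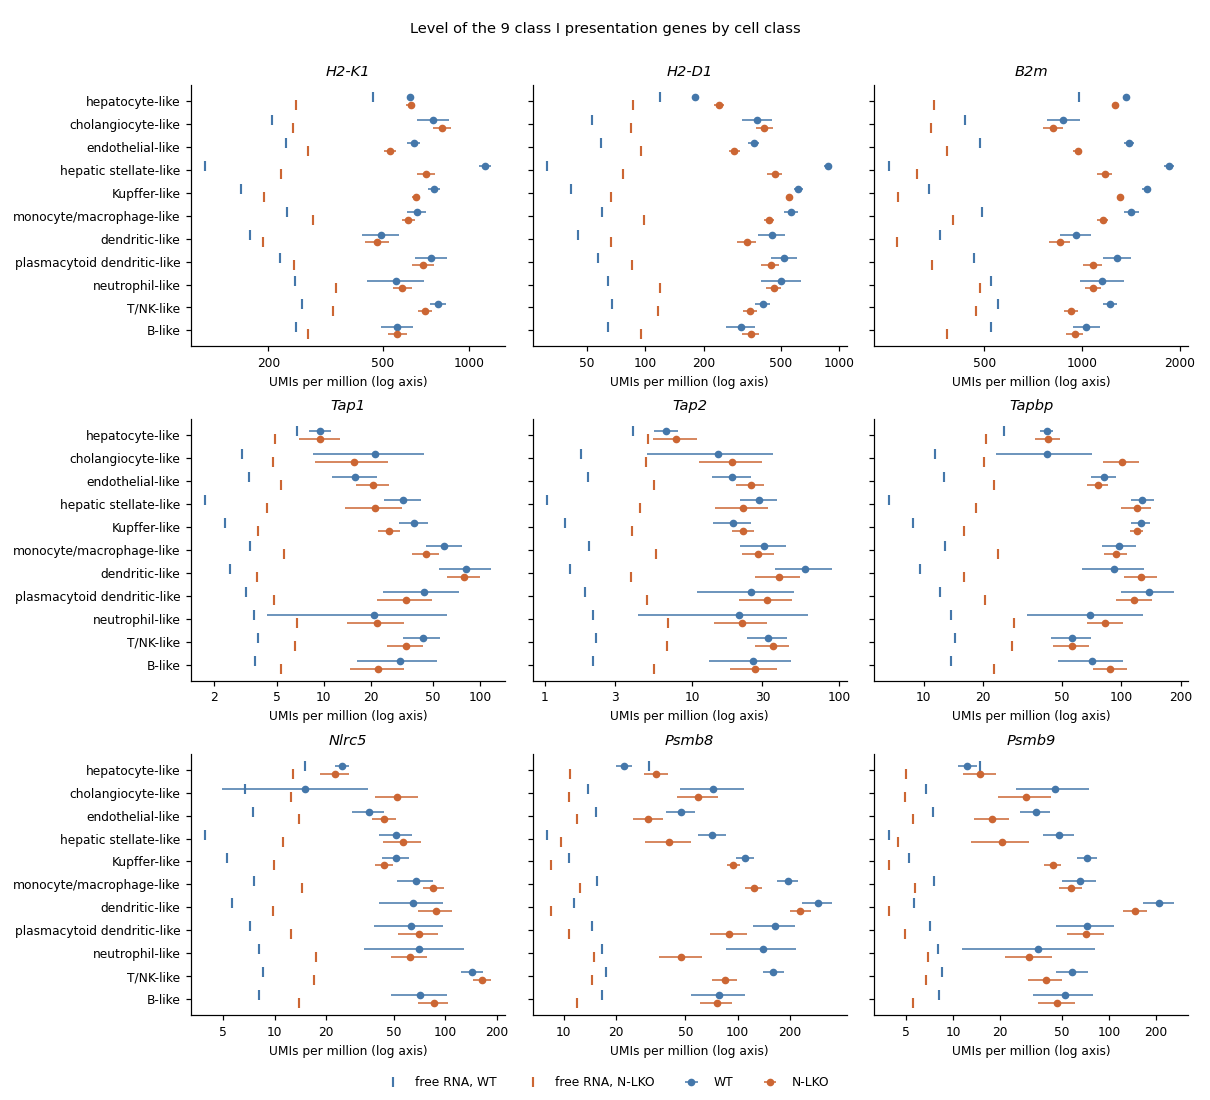
Level of each of the 9 genes in CPM (x axis, log scale) in 11 cell classes (y axis) for WT (blue) and N-LKO (orange), with exact Poisson intervals (95%); the short vertical marks give the part of the level that free RNA could account for. Hepatocyte-like cells sit lowest for Tap1 (9.48 and 9.50) and Tap2, and dendritic-like cells sit highest for Psmb8 and Psmb9 in both libraries.

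Peptide transport and loading genes were lowest in hepatocyte-like cells of both libraries. Tap1, the transporter's first chain, was lowest in hepatocyte-like cells (WT 9.48, N-LKO 9.50) and highest in dendritic-like cells (81.1 and 78.5), a spread of 8.55-fold in WT and 8.27-fold in N-LKO. Monocyte/macrophage-like cells followed with 59.1 and 44.9. Tap2, the other chain, ran from 6.68 and 7.77 in hepatocyte-like cells to 58.7 and 38.7 in dendritic-like cells. For both transporter genes the lowest class was hepatocyte-like and the highest dendritic-like in either library. Tapbp was 41.9 and 42.3 in hepatocyte-like cells. Its highest levels were 138 in plasmacytoid dendritic-like cells of WT and 125 in dendritic-like cells of N-LKO. In WT the next lowest Tapbp was 42.3, from 14 UMIs, in cholangiocyte-like cells, which did not differ from hepatocyte-like cells beyond counting error. The same held for these 2 classes for Tap2 in WT and Tap1 in N-LKO.

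The inducible proteasome subunits differed widely between classes. Psmb8, which takes the place of Psmb5 in the immunoproteasome, was highest in dendritic-like cells (WT 288, N-LKO 229). It was 22.2 in hepatocyte-like cells of WT, its lowest class there, and 30.7 in endothelial-like cells of N-LKO, where hepatocyte-like cells came next with 34.1. The spread over classes was 13.0-fold in WT and 7.45-fold in N-LKO. Psmb9, which takes the place of Psmb6, was 210 and 148 in dendritic-like cells and 12.3 and 14.9 in hepatocyte-like cells, a spread of 16.99-fold and 9.94-fold. In WT hepatocyte-like cells markers of 8 other cell types stood at 89.8% of their free RNA level. At that share free RNA could account for 30.8 of Psmb8 and 14.96 of Psmb9, above the measured values, so these WT levels, and the WT spreads taken over them, are not shown to be above background. In N-LKO hepatocyte-like cells that share was 39.7%, and the measured Psmb8 was 3.12 times its free RNA level. Outside hepatocyte-like cells, Psmb8 lay at 2.56 to 27.2 times the free RNA level.

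Nlrc5, the transactivator, was highest in T/NK-like cells and not in dendritic-like cells. T/NK-like cells held 143 in WT and 163 in N-LKO. The next class held 71.0 (B-like, WT) and 87.6 (dendritic-like, N-LKO), and the interval of the ratio to T/NK-like cells left out 1 in both libraries. Hepatocyte-like cells held 24.8 and 22.7. Cholangiocyte-like cells of WT were lower still, at 15.1, from 5 UMIs.

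Shares of cells with a UMI were taken after thinning each cell to 1000 UMIs, and no cell was shallower than that. Hepatocyte-like cells held a B2m UMI in 72.1% of cases in WT and 71.7% in N-LKO (85.1% and 88.5% without thinning), and Kupffer-like cells in 79.0% and 71.5% (87.9% and 83.8%). For Psmb8 the shares were 2.21% and 3.44% in hepatocyte-like cells (3.64% and 7.01%), and 23.3% and 22.4% in dendritic-like cells (34.9% and 35.4%). For Nlrc5 they were 13.3% and 15.5% in T/NK-like cells (16.5% and 20.7%), against 2.50% and 2.15% in hepatocyte-like cells (4.11% and 4.91%). Median depth before thinning was 1519 and 1950 UMIs in hepatocyte-like cells and 1165 and 1232.5 in T/NK-like cells. No class here is a sure negative for class I genes, so the free RNA level was used in place of one. Free RNA was not taken out of these shares. In WT hepatocyte-like cells it could account for all but 6433 of the 22803 B2m UMIs and for all Psmb8 UMIs. The WT shares there are therefore not shares of expressing cells.

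WT and N-LKO were compared class by class as the log2 ratio of N-LKO over WT, and a ratio past 1.5-fold was called higher or lower. Of the 99 pairs of a gene and a class, 3 were at least 1.5-fold higher in N-LKO and 14 at least 1.5-fold lower, which is 3.03% and 14.1% of the pairs. Over the genes tested in each class, 10.8% to 24.7% were as much higher and 9.06% to 23% as much lower, so the share of lower pairs lay within the general range and that of higher pairs below it. The interval lay above 0 in 4 pairs and below 0 in 30, of which 29 were outside hepatocyte-like cells. All 99 pairs passed the floor on low counts (5 CPM in 1 library and 20 UMIs in all). Psmb8 was the gene most often past the fold, lower in 6 classes and higher in 1, followed by Psmb9, lower in 4. B2m was below 0 in 11 of 11 classes, with the interval below 0 in 7, yet past 1.5-fold in 1.

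**Figure D2:**
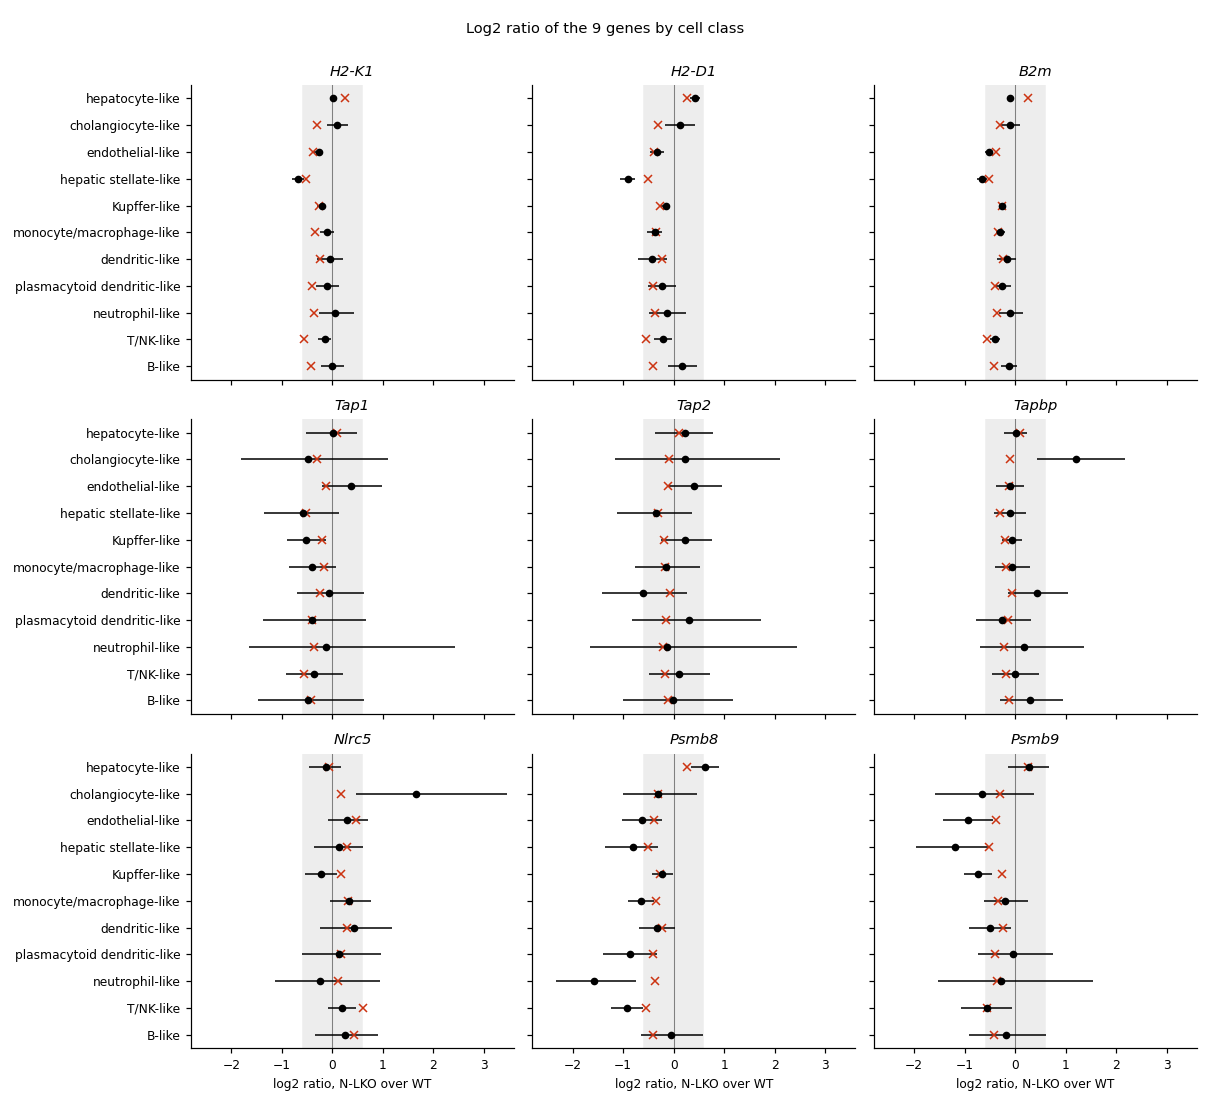
Log2 ratio of N-LKO over WT (x axis) for each gene in 11 cell classes (y axis), with exact conditional binomial intervals (95%); the gray band spans changes under 1.5-fold and red crosses mark the median ratio of all tested genes of similar genomic span in that class. Psmb8 lies to the right of the band in hepatocyte-like cells (0.62) and to the left of it in 6 other classes, while H2-K1 and B2m leave the band on the left in hepatic stellate-like cells.

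In hepatocyte-like cells, the cells targeted by albumin-Cre, the class I genes as counted lay within 1.5-fold between the libraries apart from Psmb8. This did not hold under every alternative. The median log2 ratio of the 9 genes was 0.02 (second to eighth ordered value, -0.10 to 0.42), beside 0.04 for the 9945 genes tested. Psmb8 alone passed 1.5-fold, from 22.2 in WT to 34.1 in N-LKO (log2 ratio 0.62, 0.34 to 0.89), where 14.1% of tested genes were as much higher and 9.06% as much lower. H2-D1 was 180 in WT and 240 in N-LKO (0.42, 0.32 to 0.52). B2m was 1360 and 1266 (-0.10, -0.14 to -0.06) and H2-K1 623 and 626 (0.01, -0.05 to 0.07), so that both differed by less than 1.1-fold. Tap1, Tap2, Tapbp, Nlrc5 and Psmb9 had intervals that included 0. With free RNA subtracted, no Psmb8 or Psmb9 count was left in WT and the median of the other 7 genes was -0.70. The ratio was then past 1.5-fold lower for 4 of them, Nlrc5 (-1.41), Tap2 (-1.39), Tapbp (-1.05) and Tap1 (-0.70), while H2-K1 was -0.22, B2m -0.20 and H2-D1 -0.11. The Psmb8 ratio stayed above 0 in 14 of 14 alternatives and past 1.5-fold in 6 of them. Over 15 alternatives H2-K1 ran from -0.42 to 0.85, H2-D1 from -0.11 to 1.25 and B2m from -0.64 to 0.71. With a mitochondrial limit of 10% the median of the 9 genes was 0.35.

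A cluster of 2051 N-LKO cells and 1 WT cell was rich in Malat1, a nuclear RNA, and raised too few hepatocyte markers to be named. H2-K1, B2m and Psmb8 lay at 0.933, 0.986 and 0.980 times the level that free RNA could account for in it, and Nlrc5 at 6.80 times. It held the hepatocyte markers at 12181 CPM, against 60885 in N-LKO hepatocyte-like cells. Its class I levels were unlike those of hepatocyte-like cells, with Nlrc5 at 104 (94.1 to 114), H2-K1 at 279, B2m at 415 and Psmb8 at 12.8. The nearest WT counterpart in Malat1 was a hepatocyte-like cluster of 327 cells, with Nlrc5 at 68.8 (50.4 to 91.8), H2-K1 at 242, B2m at 434 and Psmb8 at 13.5. Nlrc5 was thus high and B2m and H2-K1 were low in the Malat1-rich cluster of either library, and the largest hepatocyte-like clusters held Nlrc5 at 23.9 (WT) and 22.3 (N-LKO). Nlrc5 is also the longest of the 9 genes, at 92.9 kb. When the unnamed cluster was counted as hepatocyte-like, the log2 ratio became 1.27 for Nlrc5, -0.64 for B2m, -0.42 for H2-K1, 0.13 for Psmb8 and 1.02 for Tap2, so the call for Psmb8 was lost and those of Nlrc5, Tap2 and B2m arose.

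**Figure D3:**
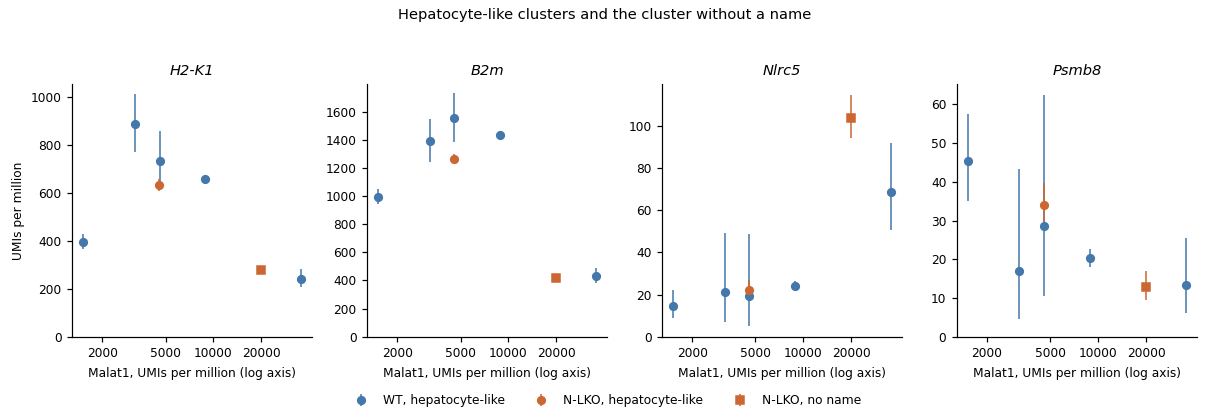
Level of H2-K1, B2m, Nlrc5 and Psmb8 in CPM (y axis) against the Malat1 level (x axis, log scale) for hepatocyte-like clusters of at least 100 cells (circles) and the cluster without a name (square), with exact Poisson intervals (95%); WT is blue and N-LKO orange. The 2 Malat1-rich clusters at the right hold the highest Nlrc5 (68.8 and 104) and the lowest B2m (434 and 415).

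Cholangiocyte-like cells, named after the lining of the bile ducts, held the only other genes past 1.5-fold upward. Epcam and Spp1 were among the leading genes of this cluster, and the paper used both among its markers of cancer cells in N-LKO. Whether tumor cells, which were added to the N-LKO library alone, lie in this class was not tested. Nlrc5 was 15.1 in WT (5 UMIs) and 52.2 in N-LKO (50 UMIs), a log2 ratio of 1.67 (0.47 to 3.47). Tapbp was 42.3 in WT (14 UMIs) and 100.2 in N-LKO (96 UMIs), a log2 ratio of 1.20 (0.43 to 2.17). Psmb9 went the other way, from 45.3 to 29.2 (-0.65, -1.59 to 0.38), with an interval that included 0. Among the 8226 genes tested in this class, 19.2% were at least 1.5-fold higher and 16.3% at least 1.5-fold lower, and 209 WT and 515 N-LKO cells stood behind the values. H2-K1 (749 and 805), H2-D1 (378 and 410) and B2m (876 and 813) stayed within 1.1-fold, and the median of the 9 genes was 0.10, beside 0.04 for all tested genes.

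Hepatic stellate-like cells, the vitamin A storing cells of the sinusoid, held the most genes past the fold. Here 5 of 9 genes were at least 1.5-fold lower in N-LKO, where 21.6% of tested genes were, and 0 were higher, against 14.5%. Relative to tested genes of the same genomic span 1 of these 5 stayed past the fold, Psmb9 at -0.69, and H2-D1 was -0.40, Psmb8 -0.30, H2-K1 -0.17 and B2m -0.14. H2-D1 was 875 in WT and 464 in N-LKO (-0.91, -1.06 to -0.77). H2-K1 was 1137 and 707 (-0.68, -0.81 to -0.56), and B2m was 1851 and 1172 (-0.66, -0.75 to -0.57). Psmb8 (71.1 and 40.1) and Psmb9 (47.8 and 20.5) had log2 ratios of -0.82 and -1.20. Nlrc5 (51.4 and 56.1) and Tapbp (128 and 119) stayed within 1.1-fold. The median of the 9 genes was -0.66, beside -0.10 for all tested genes of the class. The stellate markers themselves, 8 of 8 detected, summed to 9063 CPM in WT and 4916 in N-LKO. These cells also carried Kupffer markers, 6 of 6 detected, at a summed 1941 CPM in WT and 1323 in N-LKO, and endothelial markers, 8 of 8 detected, at 3581 and 1825. Among the 438 WT and 377 N-LKO stellate-like cells without a Kupffer marker UMI, a subset chosen after seeing the data, H2-D1 was 820 and 409 (-1.002), H2-K1 1075 and 641 (-0.74) and B2m 1862 and 1135 (-0.71). The mitochondrial share of UMIs was 10.6% in WT and 16.4% in N-LKO. It was higher in N-LKO in each of the 10 classes other than hepatocyte-like cells, at 9.70% to 14.3% in WT and 13.7% to 18.7% in N-LKO, and it was 19.7% and 15.9% in hepatocyte-like cells. The part of these shares and markers in the differences was not tested.

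Endothelial-like cells held 2 genes past 1.5-fold, both inducible proteasome subunits and both lower in N-LKO. Psmb9 was 33.9 in WT and 17.8 in N-LKO (-0.93, -1.43 to -0.43), and Psmb8 was 47.2 and 30.7 (-0.62, -1.02 to -0.23). In this class 17.1% of 11505 tested genes were as much lower and 22.7% as much higher. B2m (1395 and 968, -0.53) and the heavy chains H2-K1 (641 and 531, -0.27) and H2-D1 (362 and 287, -0.33) were lower by less than the fold, each with an interval below 0. Tap1 (15.9 and 20.7) and Tap2 (18.8 and 24.97) leaned the other way with intervals that included 0. The median of the 9 genes was -0.27, beside 0.09 for all tested genes.

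Kupffer cells are the resident macrophages of the liver. The Kupffer-like class held Kupffer markers at a summed 6309 CPM in WT and 4258 in N-LKO and monocyte/macrophage markers at 1896 and 3796, and Mmp12, Gpnmb, Trem2 and Ms4a7 were among the leading genes of its larger cluster. The part of this shift in the class I values was not tested. In Kupffer-like cells Psmb9 was 72.9 in WT and 43.7 in N-LKO (-0.74, -1.02 to -0.45). It was the 1 gene past 1.5-fold lower, where 15.3% of tested genes were, and 0 were higher, against 10.8%. B2m (1579 and 1310, -0.27), H2-K1 (756 and 652, -0.21), H2-D1 (614 and 551, -0.16), Tap1 (37.5 and 26.2, -0.52) and Psmb8 (110 and 94.4, -0.23) had intervals below 0 without passing the fold. In monocyte/macrophage-like cells Psmb8 was 194 and 123 (-0.65, -0.91 to -0.38), the 1 gene past the fold, where 18.2% of tested genes were lower and 14.8% higher. H2-D1 (562 and 433, -0.38) and B2m (1417 and 1155, -0.30) were below 0 there. The medians of the 9 genes were -0.22 and -0.20, beside -0.07 and -0.01 for all tested genes.

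Dendritic-like cells, which display peptides to T cells, held the highest levels of the inducible subunits in both libraries. The leading genes of this cluster included the dendritic markers Xcr1 and Wdfy4, and also Prtn3, Elane and Hist1h1b, which are not among those markers. The part of other cells in the class I levels of this class was not tested. Tap2 was 58.7 in WT (21 UMIs) and 38.7 in N-LKO (34 UMIs), the 1 gene past 1.5-fold lower (-0.61, -1.43 to 0.26), where 14.4% of tested genes were lower and 18.6% higher. Psmb9 (210 and 148, -0.51, -0.92 to -0.07) and H2-D1 (447 and 332, -0.43, -0.71 to -0.14) had intervals below 0. In plasmacytoid dendritic-like cells, which are known as interferon producers, Psmb8 was 163 and 89.1 (-0.87, -1.41 to -0.32), the 1 gene past the fold, where 18.3% of tested genes were lower and 19.3% higher. B2m was 1284 and 1076 there (-0.26, -0.43 to -0.08). The medians of the 9 genes were -0.17 and -0.24.

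Neutrophil-like cells gave the lowest of the 99 ratios. Psmb8 was 139 in WT (20 UMIs) and 47.3 in N-LKO (52 UMIs), a log2 ratio of -1.58 (-2.33 to -0.74). It was the 1 gene past the fold among 9, where 23% of tested genes were lower and 22.4% higher, and 105 WT cells stood behind it. H2-K1 (558 and 586), H2-D1 (502 and 460) and B2m (1151 and 1080) had intervals that included 0. The neutrophil markers of this class summed to 15707 CPM in WT and 9960 in N-LKO. It also carried endothelial markers at 1869 and 1397, monocyte/macrophage markers at 1242 and 1818 and T markers at 272 and 136. The part of these marker shifts in the Psmb8 ratio was not tested.

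In T/NK-like cells Psmb8 was 160 in WT and 84.1 in N-LKO (-0.93, -1.25 to -0.61), again the 1 gene past the fold, where 19.9% of tested genes were lower and 24.7% higher. Psmb9 (58.3 and 39.3, -0.57), B2m (1219.5 and 924, -0.40), H2-D1 (403 and 347, -0.22) and H2-K1 (779 and 702, -0.15) had intervals below 0. Nlrc5 leaned upward (143 and 163, 0.19, -0.08 to 0.47). T markers summed to 1484 CPM in WT and 910 in N-LKO in this class, and NK markers to 673 and 446. The part of these marker shifts in the class I values was not tested. In B-like cells 0 of 9 genes passed 1.5-fold in either direction, where 18.6% of tested genes were lower and 21.8% higher, and the interval of each of the 9 included 0. Psmb8 was 78.2 and 75.7 in these cells and H2-K1 561 and 562.

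Outside hepatocyte-like cells, tested genes of short genomic span had lower ratios than those of long span in each of the 10 classes. In T/NK-like cells the median ran from -0.55 in the shortest span quintile to 0.60 in the longest, and in B-like cells from -0.42 to 0.44. In hepatocyte-like cells the order was turned, from 0.26 to -0.07. All 9 genes but Nlrc5 are short, from 3.73 kb for Psmb8 to 13.4 kb for Tapbp, whereas Nlrc5 spans 92.9 kb. Set against tested genes of their own span, H2-K1 and Tapbp were above the median of their span quintile in 9 of 11 classes and B2m in 8 of 11, Psmb8 was below it in 7 of 11 and Nlrc5 in 8 of 11. On that footing 2 of the pairs lower by 1.5-fold were left of 14. These were Psmb8 in neutrophil-like cells (-1.21 relative to its quintile) and Psmb9 in hepatic stellate-like cells (-0.69). Upward, 3 pairs were past the fold, Tapbp and Nlrc5 in cholangiocyte-like cells as before, at 1.30 and 1.496, and H2-D1 in B-like cells, which was not past it without the adjustment, at 0.59. Psmb8 in hepatocyte-like cells was 0.37. The part of genomic span in the lower values was not tested. This adjusted count was added after seeing the data.

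The inducible subunits were also set against the constitutive subunits they replace. Psmb8 over Psmb5 was highest in dendritic-like cells, at 4.48 (2.83 to 7.38) for WT and 3.35 (2.50 to 4.55) for N-LKO. It was 0.514 (0.452 to 0.583) and 0.403 (0.333 to 0.486) in hepatocyte-like cells, the lowest of any class in both. The higher Psmb8 level in N-LKO hepatocyte-like cells stood beside a Psmb5 level of 43.2 in WT and 84.6 in N-LKO. Psmb9 over Psmb6 in hepatocyte-like cells was 0.263 (0.225 to 0.307) and 0.154 (0.118 to 0.199). In WT hepatocyte-like cells free RNA could account for all UMIs of Psmb5, Psmb6, Psmb8 and Psmb9, so the WT ratios there are not shown to be more than ratios of background, and no comparison with N-LKO is drawn from them. In Kupffer-like cells Psmb9 over Psmb6 was 0.957 (0.774 to 1.18) in WT and 0.493 (0.423 to 0.574) in N-LKO, with intervals that do not overlap, while Psmb8 over Psmb5 there was 1.45 (1.20 to 1.76) and 1.70 (1.48 to 1.95). In T/NK-like cells, whose Psmb8 level was lower in N-LKO, Psmb8 over Psmb5 was 1.76 (1.397 to 2.23) and 1.60 (1.22 to 2.12), and Psmb10 over Psmb7 was 0.649 (0.446 to 0.939) and 0.294 (0.196 to 0.432). With free RNA subtracted, Psmb9 over Psmb6 in Kupffer-like cells was 1.49 and 0.523.

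**Figure D4:**
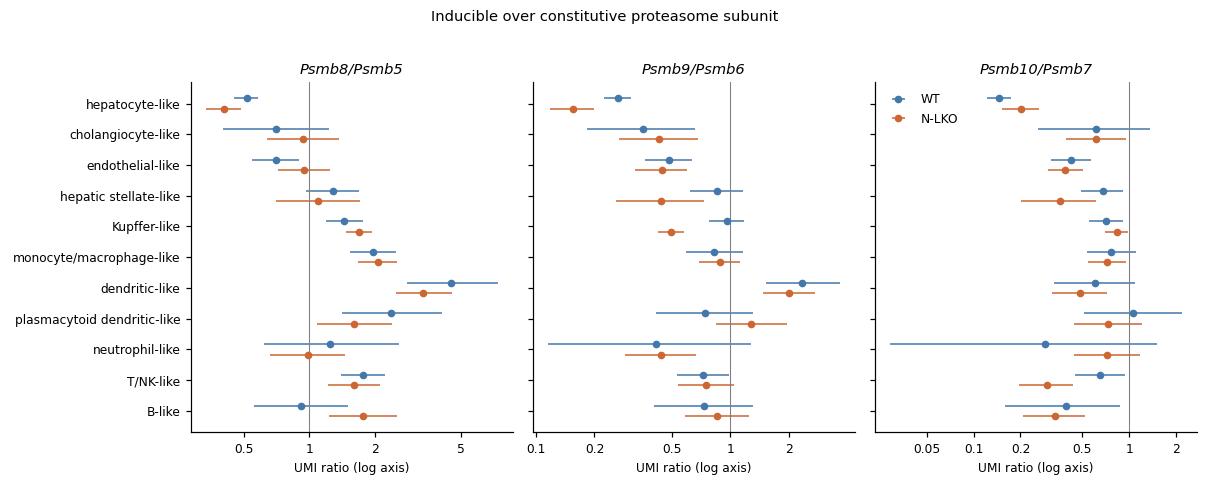
UMI ratio of each inducible proteasome subunit to the constitutive subunit it replaces (x axis, log scale) in 11 cell classes (y axis) for WT (blue) and N-LKO (orange), with exact conditional binomial intervals (95%). Hepatocyte-like cells sit lowest and dendritic-like cells highest for Psmb8/Psmb5, and the intervals of the 2 libraries separate for Psmb9/Psmb6 in Kupffer-like cells. In WT hepatocyte-like cells free RNA could account for all UMIs of these subunits.

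Of the wider pathway, 38 further genes were listed in the matrices and 1 (H2-T10) was not found by its symbol. In hepatocyte-like cells 34 of the 38 passed the floor, with 7 at least 1.5-fold higher in N-LKO and 1 lower, beside the 14.1% and 9.06% of tested genes given above. The higher ones included Psme2, a subunit of the proteasome activator (23.9 and 49.2, log2 ratio 1.05), the constitutive subunits Psmb6 (46.9 and 96.5, 1.04) and Psmb5 (0.97), Pdia3, a chaperone of the loading complex (187 and 312, 0.73), and Ifngr1, a chain of the interferon gamma receptor (15.4 and 24.4, 0.66). Cd1d1, which presents lipids to NKT cells, was the lower one (103 and 63.4, -0.69). Free RNA could account for all WT UMIs of Psme2, Psmb6 and Psmb5, so these WT levels are not shown to be above background. With free RNA subtracted, the ratio of Pdia3 changed sign (-0.17), Ifngr1 kept 6.28 WT UMIs and Cd1d1 was -1.62. Irf1 was 13.9 and 16.4 there (0.25). H2-Q10, a heavy chain known to be secreted by the liver, was 1152 and 1073 (-0.10).

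In endothelial-like cells 8 of 38 passing genes were lower and 1 higher, where 17.1% and 22.7% of tested genes were, with Psmb5 (67.3 and 32.4, -1.05), H2-T22 (-0.81) and Psmb6 (-0.80) the lowest and Ifngr1 (24.2 and 44.5, 0.87) the higher one. In hepatic stellate-like cells 9 of 36 were lower and 1 higher, where 21.6% and 14.5% of tested genes were. The lowest were H2-Q6, a nonclassical heavy chain (60.9 and 24.1, -1.32), Psmb10 (43.0 and 16.9, -1.32) and Irf1, an interferon-induced transcription factor (99.8 and 45.4, -1.12), and the higher one was Nfyc (0.66). Kupffer-like cells had 6 of 37 lower and 0 higher, beside 15.3% and 10.8% of tested genes, among them Cd1d1 (39.9 and 16.3, -1.29) and Nfyb (-0.74). Monocyte/macrophage-like cells had 4 of 37 lower and 0 higher, beside 18.2% and 14.8% of tested genes, with Irf1 (125 and 61.1, -1.03), H2-T22 (-0.89) and Psmb5 (-0.72) lowest. T/NK-like cells had 8 of 35 lower and 0 higher, beside 19.9% and 24.7% of tested genes, with Nfyb (-1.24), H2-M3 (-1.12) and Psmb10 (38.9 and 20.9, -0.89) lowest. Irf1 was also lower in neutrophil-like cells (139 and 54.6, from 20 and 60 UMIs, -1.38), where 9 of 31 were lower and 4 higher, beside 23% and 22.4% of tested genes.

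In the smaller classes both directions occurred. Cholangiocyte-like cells had 6 of 32 higher and 6 lower, beside 19.2% and 16.3% of tested genes, led upward by Tapbpl (1 and 27 UMIs, 2.66, 0.62 to 8.58), Pdia3 (154 and 307, 0.98) and Ifngr1 (0.89) and downward by Psmb6 (127 and 67.8, -0.91), Nfyb (-0.86) and H2-T23 (-0.73). Dendritic-like cells had 2 of 33 on either side, beside 18.6% of tested genes higher and 14.4% lower, with Calr (308 and 473, 0.62) and Nfyb (0.59) higher and H2-T23 (95.1 and 50.1, -0.93) and Cd1d1 (-0.87) lower. Plasmacytoid dendritic-like cells had 3 of 33 higher, Ifngr1 (0.97), Jak1 (169 and 313, 0.88) and Nfyc (0.74), and 5 lower, led by H2-Q4 (-1.53), H2-Q6 (-1.15) and Psmb6 (-0.81), beside 19.3% of tested genes higher and 18.3% lower. B-like cells had 6 of 33 higher, led by Nfya (1.10), Erap1 (0.79) and Ifngr1 (0.68), and 6 lower, led by Cd1d1 (-1.25), Psmb5 (85.3 and 43.0, -0.99) and Nfyb (-0.72), beside 21.8% of tested genes higher and 18.6% lower. Neutrophil-like cells had Nfyc (1 and 56 UMIs, 2.30, 0.33 to 8.20), Calr (0.72) and Psmb10 (2 and 31 UMIs, 0.72, -0.96 to 4.12) higher, and Irf1, H2-Q6 (6 and 19 UMIs, -1.35, -2.66 to 0.34) and Psmb5 (16 and 53 UMIs, -1.24, -2.04 to -0.31) the lowest of those that passed the floor. Rfxank (3 and 2 UMIs) and Mr1 (3 and 6 UMIs) were under the floor there and are in none of these counts.

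Over the 22 points given by 11 classes in 2 libraries, which share their library and its depth, the 9 genes were compared by Pearson's r of their levels. Pearson's r of the log2 levels was 0.91 for Psmb8 with Psmb9, 0.91 for Psmb9 with Tap1 and 0.89 for Psmb8 with Tap1, the genes of the block on chromosome 17, and 0.86 for Tap1 with Tap2. H2-K1 and B2m had r of 0.50 with each other and between -0.25 and 0.20 with Tap1, Tap2, Tapbp, Nlrc5, Psmb8 and Psmb9, and H2-D1 had r of 0.70 with Tapbp. Of the 10795 genes with at least 20 CPM at 1 point, those most like the mean of the 9 scaled genes included Ust (r = 0.89), Tln1 (0.89), Necap2 (0.88), Ptpn18 (0.87), Phf11b (0.87), Emp3 (0.87), Arhgef6 (0.87), Chmp4b (0.86) and Tpm3 (0.86).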

How the data were processed

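For each of 2 droplet libraries the authors deposited a matrix of raw UMI counts, without normalization, which Cell Ranger had made (7.1.0 by the matrix headers). The submitters' processing notes name mm9, while the gene IDs are those of a GRCm38 annotation, and the files hold no coordinates. Genes without coordinates in that annotation were left out of the span comparison.

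Barcodes with at least 1000 UMIs, 400 genes and at most 30% mitochondrial UMIs were kept. Doublets were removed at a Scrublet score of 0.25, set after seeing the data. The 2000 most variable genes, without the members and their pathway, gave 30 components, a graph over 20 neighbours and Leiden clusters at resolution 0.3 (scanpy 1.11.5, leidenalg 0.10.2, Python 3.11.15). A cluster was named with at least 3 markers raised 2-fold and a score of at least 0.2, and called mixed when an unrelated type reached 0.7 of the best score. These naming limits were set after seeing the data, so a difference from the study may come from rebuilt names. Mixed clusters (992 WT and 2731 N-LKO cells), plasma, erythroid and mesothelial cells were not compared.

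UMIs were summed per class and library and scaled to a common total (CPM). Ratios are log2 of N-LKO over WT with 0.5 UMI added. Poisson, conditional binomial and Clopper-Pearson intervals (95%) cover counting error only. Tested genes had at least 5 CPM in 1 library and 20 UMIs in all. Free RNA was scaled by the level of hepatocyte markers in a class, and in hepatocyte-like cells by 8 lists of other types. The computation was tested on simulated data. The genes named are the 9 members, pathway genes past 1.5-fold with at least 20 CPM (in hepatocyte-like cells all, elsewhere the 3 largest each way) and the 10 most similar genes, of which 1 is not reported here. Irf1, H2-Q6, H2-Q10, Psmb5 and Psmb10 values outside that rule were chosen after being seen. The members, lists and rules were chosen with earlier results of these data known.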

Additional observations from a re-analysis of the deposited data

Results flagged for a closer look

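The log2 ratio of Psmb8, N-LKO over WT, lay past 1.5-fold upward in hepatocyte-like cells (0.62) and past 1.5-fold downward in 6 other classes, which is what drew attention to it. It was -0.93 in T/NK-like, -0.62 in endothelial-like, -0.82 in hepatic stellate-like, -0.65 in monocyte/macrophage-like, -1.58 in neutrophil-like and -0.87 in plasmacytoid dendritic-like cells. Relative to tested genes of the same genomic span, 1 of these 7 ratios stayed past the fold, -1.21 in neutrophil-like cells, and the others were 0.37 in hepatocyte-like, -0.38 in T/NK-like, -0.23 in endothelial-like, -0.30 in hepatic stellate-like, -0.30 in monocyte/macrophage-like and -0.47 in plasmacytoid dendritic-like cells. The difference between classes was not tested, since each group had 1 library. The WT hepatocyte-like level of Psmb8 lay at 0.720 times the level that free RNA could account for.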

How the results depend on the processing

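No paired analysis was possible because each group had 1 library. Of 132 values of the class medians under 16 alternatives, 123 stayed between the second and eighth ordered values of the 9 genes and 9 did not. This band is not a counting interval, and a median inside it may have changed sign. Less the median of tested genes in the same quintile of genomic span, the median was 0.30 in B-like, 0.0434 in Kupffer-like, 0.18 in T/NK-like, 0.0340 in monocyte/macrophage-like, 0.23 in neutrophil-like and 0.15 in plasmacytoid dendritic-like cells. Inside the band, it was 0.0177 in endothelial-like (reported -0.27), 0.0742 in dendritic-like (-0.17) and 0.32 in cholangiocyte-like cells (0.10). It was -0.16 in hepatic stellate-like (-0.66) and -0.05 in hepatocyte-like cells (0.02). With a mitochondrial limit of 10% the median was -0.65 in T/NK-like cells, and with free RNA subtracted -0.67 in endothelial-like and -0.70 in hepatocyte-like cells. The cause was not tested. The 14 pairs of gene and class past 1.5-fold lower became 2 at a threshold of 2-fold and 2 less the span median. Pairs of the other pathway genes became 5 higher and 18 lower at 2-fold, by construction, and 30 lower less the span median. The counts less the span median, the unnamed cluster counted as hepatocyte-like, and both subsets of cells were added after seeing the data. The 17 pairs past the fold kept their sign in each alternative that gave a value. Too few cells were left at a minimum of 2000 UMIs in 8 classes, at the 10% limit in 5 and at resolution 0.6 in 1. Of 198 levels of a gene in a class and library, 97 left their counting interval once free RNA was subtracted. Among the 11 classes neutrophil-like cells of WT held the fewest UMIs (143372).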
